A study of Homo sapiens with 21 samples.

Results

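RNA polymerase III is the nuclear enzyme that makes transfer RNAs, the smallest ribosomal RNA and other short untranslated RNAs. The messenger RNAs of 9 of its subunits, POLR3A, POLR3B, POLR3C, POLR3D, POLR3E, POLR3F, POLR3G, POLR3GL and POLR3K, are described here, out of 27142 genes in the deposited expression table. They were picked by symbol, and they were proposed after the level of POLR3GL was seen to be low with an shRNA against ANXA4. The comparison of that shRNA with its control therefore describes these genes and tests nothing about them. All 9 symbols were found, and all 9 reached at least 1 FPKM (fragments per kilobase of exon per M fragments) in all 21 libraries, so none was lost to the filter on low values.

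The libraries came from HEK 293FT, an embryonic human kidney line carrying the SV40 large T antigen, transfected with plasmids by Lipofectamine 2000 and harvested after 48 h, at passages labelled 8-12. Every group therefore shares the line, the transfection and the presence of a plasmid, and untransfected cells were not analysed here. In 3 groups the plasmid encoded a short hairpin RNA (shRNA), which is cut into a small RNA that guides Argonaute to messenger RNA: non-targeting (NT), against ANXA4, a calcium-dependent phospholipid-binding protein, or against B4GALNT1, an enzyme of ganglioside synthesis. In the other 4 groups it encoded RfxCasR, an RNA-guided RNA nuclease, with an NT or a B4GALNT1 guide RNA (gRNA), or with an NT or an ANXA4 guide array. Each group had 3 libraries. The promoters, the sequences of the hairpins and guides, and the fraction of cells that took up a plasmid are not given in the sources used here.

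The polymerase has a catalytic core, formed mainly by POLR3A and POLR3B, to which several attached groups of subunits belong. POLR3C, POLR3F and either POLR3G or POLR3GL form a trimer that works in opening the promoter, and POLR3D and POLR3E form a dimer that works in initiation and termination. POLR3G and POLR3GL are paralogs that fill the same place in the enzyme, so a polymerase molecule carries one or the other. As background, POLR3GL is found in most tissues, whereas POLR3G is abundant in pluripotent and many transformed cells. Hairpins and guides are commonly made from plasmids by this same polymerase.

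The paralogs are similar enough in protein role to be compared, and their transcripts are different enough for reads to be assigned. Their coding sequences, in the GENCODE transcripts of build GRCh38, are 672 bases for POLR3G and 657 bases for POLR3GL. In an alignment of 632 bases, 393 (62.2%) were identical, the longest identical run was 14 bases, and no run of 50 bases was shared. The most similar stretch of 90 coding bases, from near the 3′ end of the coding sequence where both encode an acidic tail, is printed 5′ to 3′, with capitals at the 16 positions where the genes differ and lower case at the 74 that are identical. It covers parts of 2 coding exons in each gene, between bases 90506648 and 90512115 of chromosome 5 for POLR3G and between bases 145978070 and 145978423 of chromosome 1 for POLR3GL, on the plus strand of this build for both.
POLR3G: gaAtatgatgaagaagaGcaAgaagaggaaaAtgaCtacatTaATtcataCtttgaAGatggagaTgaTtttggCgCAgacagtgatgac
POLR3GL: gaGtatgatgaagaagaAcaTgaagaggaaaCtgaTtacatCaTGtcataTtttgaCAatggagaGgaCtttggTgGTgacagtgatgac
Even here the differences are spread along the stretch. Among all runs of 50 bases in the POLR3G transcript, 98 of 3236 (3.03%) also occur in the pseudogenes POLR3GP1 and POLR3GP2. For POLR3GL, 240 of 1116 (21.5%) also occur in transcripts of AC243547.3, another GENCODE gene. Reads of those stretches cannot be divided between the 2 genes. The other 7 transcripts shared no run of 50 bases with another gene.

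In the authors' table (build hg19) POLR3GL lies on the minus strand of chromosome 1 from 145456236 to 145470408, and POLR3C lies on the same strand and chromosome from 145590667 to 145611044. Both fall within the annotated spans of NBPF10 and NBPF20 on the opposite strand, and reads were counted on the sense strand. POLR3G lies on the plus strand of chromosome 5 from 89770681 to 89810369. The other 6 are spread over chromosomes 8 (POLR3D), 10 (POLR3A), 12 (POLR3B), 16 (POLR3E and POLR3K) and 20 (POLR3F), with exon lengths from 819 bases for POLR3K to 6602 bases for POLR3A. A 77-base microRNA gene, MIR3192, lies inside POLR3F on the same strand.

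Converted back to reads, the FPKM values gave depths of 34.7 to 39.5 M reads for the 6 array libraries and 21.3 to 30.7 M for the other 15. The lowest number of reads behind any value of the 9 genes was 210, for POLR3GL in an ANXA4 shRNA library. Of 10 markers of the cell line, 9 were at or above 1 FPKM in every library, and PAX2 was not. Of 5 blood markers, 3 were below 1 FPKM throughout and the highest value was 1.502. All 4 endothelial markers stayed below 1 FPKM, with a maximum of 0.26. Of 5 fibroblast genes, COL1A1 and COL3A1 were above 1 FPKM throughout, up to 11.03, and DCN was near 0. The targeted genes followed their labels in the shRNA and single-guide groups: ANXA4 averaged 2.40 FPKM with its shRNA and 5.90 with the NT shRNA, and B4GALNT1 averaged 2.78 with its shRNA against 4.08, and 2.21 with its gRNA against 5.89. The arrays went against theirs, since ANXA4 averaged 7.03 FPKM in the libraries labelled ANXA4 array and 3.03 in those labelled NT array. No direction drawn between the 2 array groups below is more than a statement about labels.

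Group means of the core subunits differed by at most 1.53 times. POLR3A, the largest subunit, which holds the catalytic site with POLR3B, ranged from 18.04 to 28.6 FPKM over the 21 libraries, with group means from 18.6 (NT array) to 27.2 (ANXA4 shRNA). The 6 array libraries, at 18.04 to 20.2, lay below the 6 single-guide libraries, at 22.2 to 24.0, and the ANXA4 shRNA libraries lay above every other. POLR3B, the other large core subunit, averaged 8.11 to 8.13 FPKM in the single-guide groups, 9.16 with the NT shRNA and 11.1 to 12.4 in the other 4 groups. Neighbours among those 4 overlapped, apart from the libraries labelled NT array, which lay above all others. POLR3K, a small subunit at the catalytic site that works in RNA cleavage and termination, had the highest level per length of the 9 genes, with a median of 67.5 FPKM. Its group means formed 2 blocks: 52.9 to 55.0 in the B4GALNT1 shRNA and array groups, and 68.5 to 75.8 in the single-guide, ANXA4 shRNA and NT shRNA groups. Within each block neighbouring groups overlapped, and between the blocks they did not.

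Of the dimer subunits, POLR3E varied least of all 9 genes, with a ratio of 1.24 between the highest and lowest group means. It averaged between 13.0 and 16.2 FPKM, and each group overlapped the next in order. POLR3D averaged from 24.3 (NT array) to 33.2 (B4GALNT1 gRNA), and the 6 single-guide libraries, at 30.9 to 34.7, lay above all 15 others. The 6 array libraries and the 6 single-guide libraries overlapped for POLR3E and POLR3GL. Without overlap, POLR3A, POLR3D and POLR3K were lower and POLR3B, POLR3C, POLR3F and POLR3G higher in the arrays. The share of all genes without overlap was not counted for these libraries, so this only describes the 9 genes. The array libraries were also the deepest, so construct, depth and any difference of handling cannot be told apart there. No test was made of these differences.

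Within the trimer, both paralogs and POLR3C varied most. POLR3F averaged from 8.61 FPKM (B4GALNT1 gRNA) to 11.8 (ANXA4 shRNA), a ratio of 1.37. POLR3C averaged 12.1 to 15.2 in 6 groups and 22.4 ± 1.29 (SD, n = 3) with the ANXA4 shRNA. Its libraries there were at 23.0, 23.2 and 20.9, against 11.4 to 15.8 in the other 18, with no overlap. The ratio of the highest to the lowest group mean was 3.36 for POLR3GL, 2.67 for POLR3G and 1.85 for POLR3C, and 1.24 to 1.53 for the other 6 genes.

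**Figure D1:**
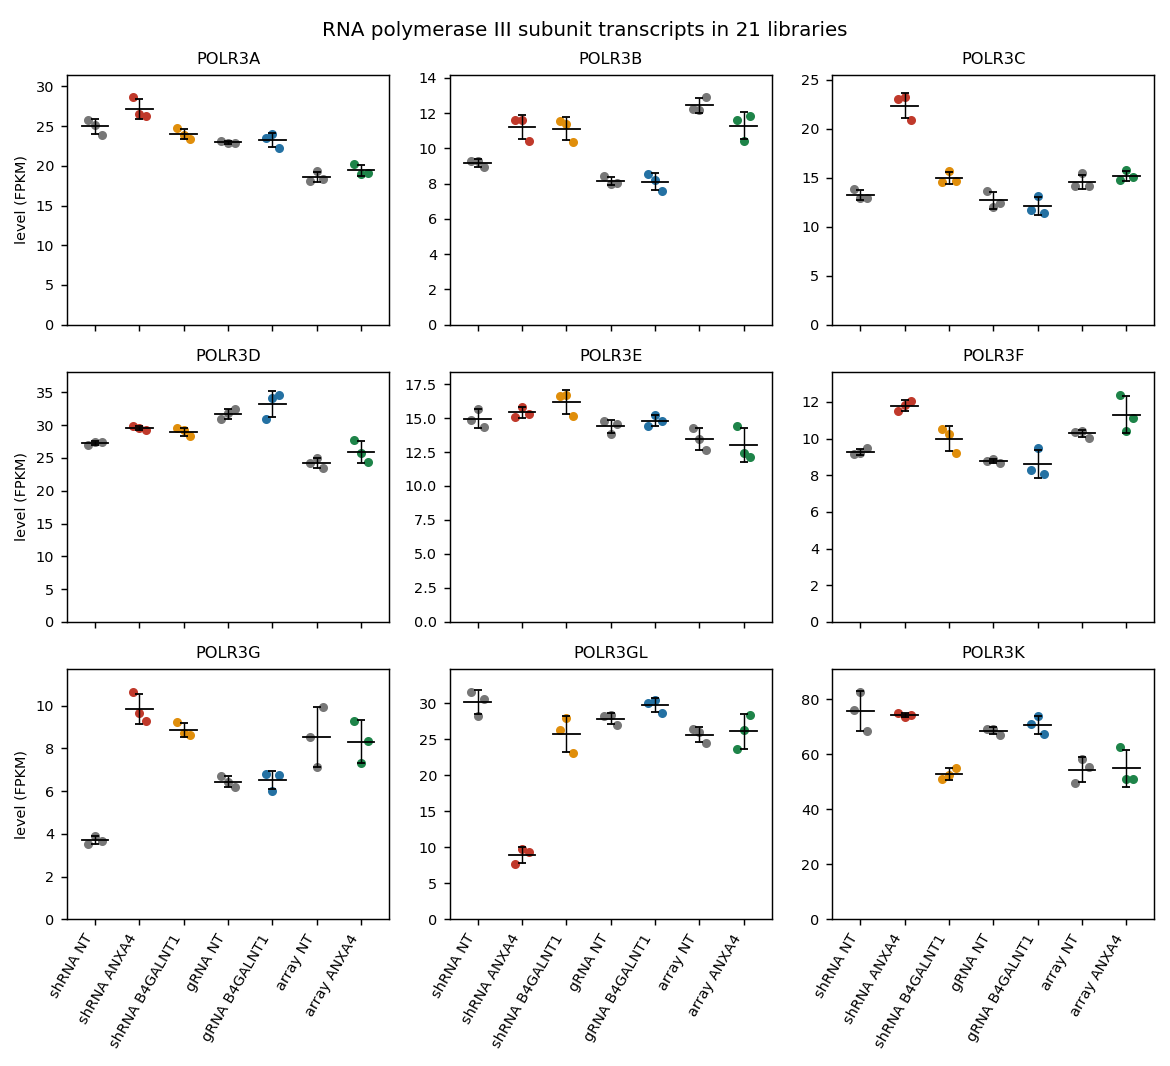
Level in FPKM (vertical axes, each from 0) of the 9 subunits in the 7 groups (horizontal axes); points are libraries, horizontal lines are means and bars are SD (n = 3). POLR3GL stands out with the ANXA4 shRNA at 8.96 FPKM, and POLR3G with the NT shRNA at 3.70.

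POLR3G was at 3.53, 3.90 and 3.67 FPKM in the NT shRNA libraries, below all 18 others, which ran from 6.02 to 10.7. It was at 6.72, 6.41 and 6.22 with the NT gRNA, and at 6.81, 6.02 and 6.75 with the B4GALNT1 gRNA. These 2 groups overlapped each other and no other group. In the libraries labelled NT array it was at 8.55, 7.12 and 9.94, and in those labelled ANXA4 array at 9.30, 7.30 and 8.35. With the B4GALNT1 shRNA it was at 9.23, 8.74 and 8.62, inside the range of the arrays, and with the ANXA4 shRNA at 10.7, 9.65 and 9.27. Thus the control shRNA, and not a targeting construct, held the library group with the lowest POLR3G.

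POLR3GL was at 31.5, 28.2 and 30.5 FPKM with the NT shRNA and at 7.72, 9.81 and 9.34 with the ANXA4 shRNA. The ANXA4 shRNA libraries lay below all 18 others, of which the lowest was 23.04. With the B4GALNT1 shRNA it was at 26.2, 27.98 and 23.04. It was at 28.2, 28.3 and 26.9 with the NT gRNA and at 30.1, 30.4 and 28.7 with the B4GALNT1 gRNA. The array libraries ran from 23.6 to 28.4. Over the 5 groups other than the NT and ANXA4 shRNA, group means of POLR3GL differed by a ratio of 1.16 and those of POLR3G by 1.37, so outside those 2 groups POLR3GL varied less than POLR3G.

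The level per length puts the paralogs on 1 scale. Runs of 50 bases shared with other genes (21.5% for POLR3GL, 3.03% for POLR3G) were not corrected for, so the shares are approximate. POLR3GL was 89.0 ± 1.05% of the summed FPKM of both paralogs with the NT shRNA and 47.5 ± 4.76% with the ANXA4 shRNA (SD, n = 3). It was 74.3 ± 1.73% with the B4GALNT1 shRNA, 81.2 ± 0.404% with the NT gRNA, 81.98 ± 1.33% with the B4GALNT1 gRNA, 75.02 ± 3.71% with the NT array and 75.7 ± 3.51% with the ANXA4 array. In the ANXA4 shRNA libraries the paralogs were thus near equal, with single shares from 42.0% to 50.4%, and in no other library was the share under 71.1%. The summed level was 33.8 to 36.2 FPKM on average in 6 groups and 18.8 ± 0.569 with the ANXA4 shRNA. POLR3GL went from the second highest of the 9 genes with the NT shRNA to the lowest with the ANXA4 shRNA, whereas POLR3G was the lowest of the 9 in the other 6 groups.

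**Figure D2:**
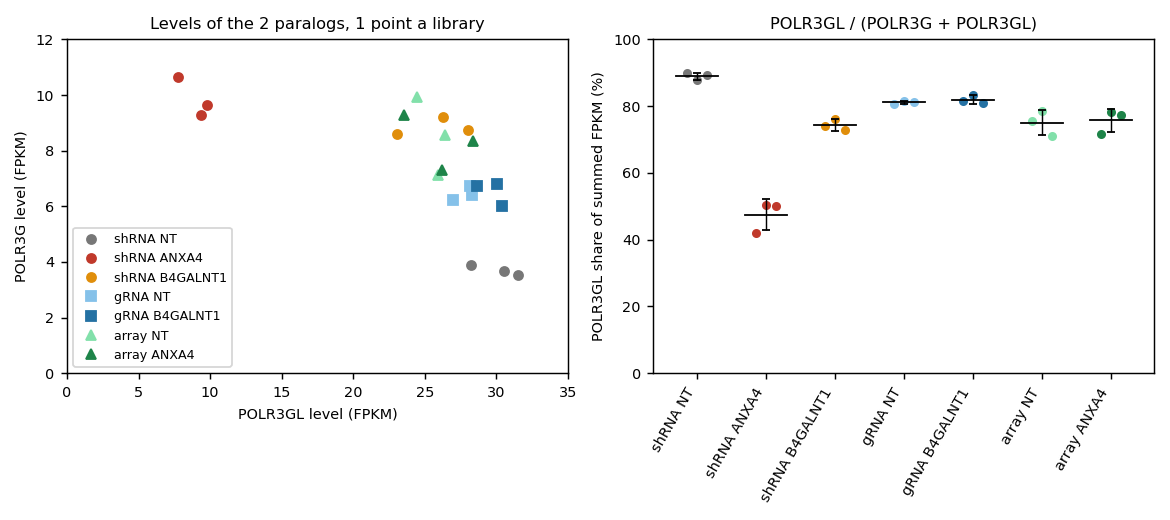
Left, level of POLR3G (vertical axis, FPKM) against that of POLR3GL (horizontal axis, FPKM), with 1 point a library; right, the POLR3GL share of the summed FPKM (vertical axis, percent) by group, with means as lines and SD as bars (n = 3). The ANXA4 shRNA libraries lie at 42.0% to 50.4% and the NT shRNA libraries at 87.9% to 89.9%.

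With the ANXA4 shRNA against the NT shRNA, the comparison that chose these genes, the level of POLR3GL differed by -70.3%, which is -1.65 on the log2(FPKM + 1) scale. POLR3G was higher by 1.21 (2.67 times in FPKM) and POLR3C by 0.71 (1.69 times). POLR3F (0.32), POLR3B (0.26), POLR3A (0.12) and POLR3D (0.11) were higher by less, and POLR3E and POLR3K overlapped between the groups. The libraries of the 2 groups did not overlap for 7 of the 9 genes, beside 60.9% of the 13679 genes tested. By direction, 6 were higher, beside 29.9% of all genes, and 1 lower, beside 31.1%. The median difference of the 9 was 0.12, beside -0.01 over all genes. Since the labelled material is bulk RNA, fewer cells with a transcript and less of it per cell cannot be told apart in any of these values. The POLR3GL share of both paralogs differed by -41.5 percentage points, and by -49.76 points when counted in recovered reads rather than per length.

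The B4GALNT1 shRNA was set against the same 3 NT shRNA libraries, so the low POLR3G of those libraries enters this comparison as well and its results are not independent of the comparison above. On log2(FPKM + 1), 5 of the 9 genes passed limma's test at an adjusted p under 0.05, beside 44.4% of all genes tested, so the count is close to that background; 3 were higher, beside 18.4%, and 2 lower, beside 26.0%. POLR3G rose by 1.07 ± 0.0893 (SE; limma adjusted p = 1.36e-08), from 3.70 to 8.86 FPKM, with all 3 libraries above all 3 controls. POLR3K fell by 0.51 ± 0.0737 (limma adjusted p = 1.64e-05): its libraries were at 51.0, 52.6 and 55.2 FPKM with the B4GALNT1 shRNA and at 76.2, 82.7 and 68.4 with the NT shRNA, and the groups did not overlap. POLR3B rose by 0.25 ± 0.0566 (limma adjusted p = 0.00135), from 9.27, 9.30 and 8.92 FPKM to 11.6, 11.4 and 10.4.

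POLR3C and POLR3GL passed by less. POLR3C was higher by 0.16 (limma adjusted p = 0.0306) and POLR3GL lower by 0.22 (limma adjusted p = 0.0273). The POLR3GL call was lost after median-centring (limma adjusted p = 0.0751), with no filter on low values (limma adjusted p = 0.052) and with voom on recovered reads (limma adjusted p = 0.0508). Without NT shRNA replicate 3 both calls were lost, which left 3 of the 9. The POLR3C call was also lost without replicate 2 of either group, and the POLR3GL call without NT shRNA replicate 1 or B4GALNT1 shRNA replicate 3. POLR3A (-0.05), POLR3D (0.09), POLR3E (0.11) and POLR3F (0.09) did not pass, with limma adjusted p from 0.138 to 0.328. Some of these passed under other settings: POLR3D after median-centring (limma adjusted p = 0.0364) and quantile normalization (0.0403), and POLR3E after both (0.0417 and 0.0191) and with voom (0.0491). POLR3E was also called in the authors' deposited table, at an adjusted p of 0.0261. The POLR3GL share differed by -14.7 points with no overlap, as was the case for 6 of the 9 genes and 55.5% of all genes in this comparison, and the exact two-sided permutation test of the share gave p = 0.1, the smallest that 3 against 3 allows, and 0.2 after adjustment over 4 comparisons. For all genes the calls split into 2523 higher and 3554 lower, and into 3162 and 2775 after median-centring.

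With the B4GALNT1 gRNA against the NT gRNA, which uses no shRNA library, none of the 9 genes passed limma's test, beside 0.00731% of all genes, which is 1 gene. At an unadjusted p under 0.05 the count was also 0, and neither voom on the recovered reads nor the authors' deposited table called any. Differences ran in size from 0.0046 (POLR3B, lower) to 0.0925 (POLR3GL, higher), with SE from 0.043 to 0.0893. POLR3GL was the only one of the 9 whose libraries did not overlap, which held for 11.8% of all genes. The share of POLR3GL was 0.818 points higher (exact permutation p = 0.4, adjusted 0.533). B4GALNT1 itself fell by 1.09 there (limma adjusted p = 1.67e-07).

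Between the libraries labelled ANXA4 array and those labelled NT array, none of the 9 passed limma's test, beside 0.285% of all genes, and 1 had an unadjusted p under 0.05. That gene was POLR3B, lower by 0.13 (limma adjusted p = 0.407), whose groups did not overlap, as was the case for 10.3% of all genes. Voom on the recovered reads and the authors' deposited table called none of the 9 either. The authors' deposited table gave each of the 9 the opposite sign, as it did for ANXA4, which is -1.21 there and 1.00 from the labelled columns. The POLR3GL share differed by 0.714 points (exact permutation p = 0.8). The libraries labelled NT array, with ANXA4 at 2.54 to 3.34 FPKM, had POLR3GL at 24.4 to 26.4 FPKM, and the ANXA4 shRNA libraries, with ANXA4 at 2.15 to 2.56, had it at 7.72 to 9.81. These are levels side by side in 1 table, and their difference was not tested.

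The NT gRNA group was set against the NT shRNA group to place the 2 controls, which differ in RfxCasR as well as in the small RNA. In this comparison 4 of the 9 genes passed limma's test, beside 48.9% of all genes: 2 were higher, beside 22.4%, and 2 lower, beside 26.5%. POLR3G was again the gene with the lowest adjusted p: it was higher by 0.67 ± 0.0893 (limma adjusted p = 6.52e-06), 6.45 against 3.70 FPKM. POLR3D was higher by 0.21 ± 0.0454 (limma adjusted p = 0.000833), with libraries at 30.9, 31.8 and 32.4 FPKM against 27.0, 27.4 and 27.5. POLR3A, lower by 0.12 (limma adjusted p = 0.0331), and POLR3B, lower by 0.15 (limma adjusted p = 0.0306), lost their calls after median-centring, quantile normalization and with voom on recovered reads. POLR3GL did not pass (-0.11, limma adjusted p = 0.255), and the POLR3GL share differed by -7.86 points with no overlap (exact permutation p = 0.1, adjusted 0.2). Over all genes 3066 were called higher and 3621 lower, and 3698 and 2860 after median-centring. The count was 2 when NT gRNA replicate 2 or 3, or NT shRNA replicate 1 or 2, was left out. Groups did not overlap for 5 of the 9 genes, beside 60.7% of all genes. The NT shRNA libraries also entered the comparison that chose these genes, so the results of this paragraph are not independent of it.

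**Figure D3:**
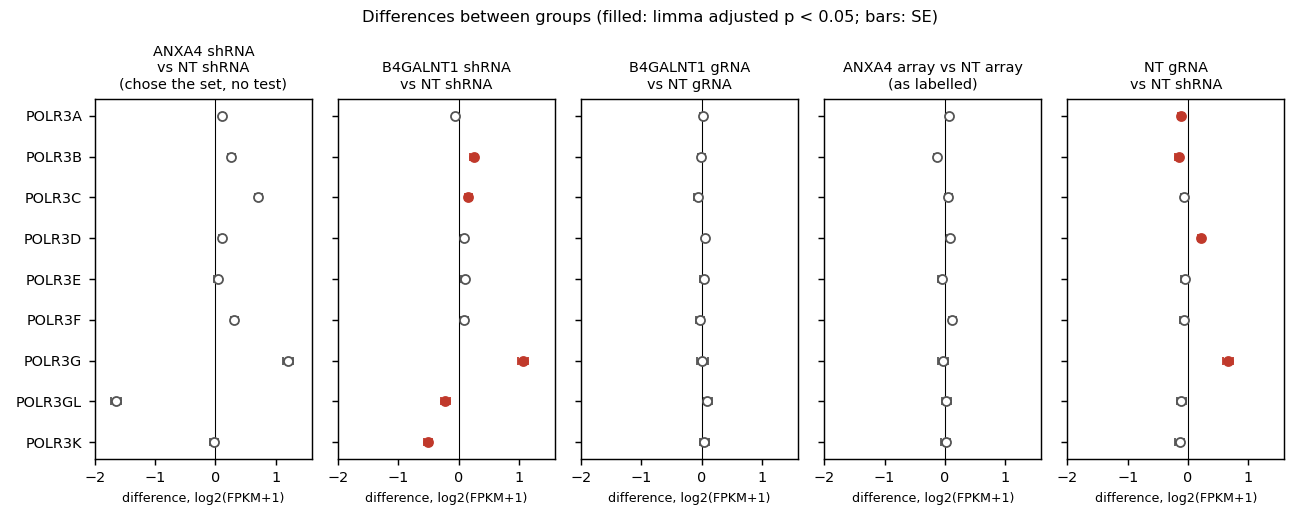
Difference between groups on the log2(FPKM + 1) scale (horizontal axes) for the 9 subunits (vertical axis) in 5 comparisons, with bars for the standard error; filled points passed limma at an adjusted p under 0.05, and the first panel has no test. Both RfxCasR targeting comparisons lie at most 0.1302 from 0, and POLR3G lies above 0 in all 3 comparisons with the NT shRNA.

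The effect of targeting B4GALNT1 was then compared between methods, as the difference of the gRNA comparison minus the shRNA comparison. It passed limma's test for 5 of the 9 genes, beside 29.8% of all genes, with 2 above 0, beside 16.9%, and 3 below 0, beside 12.9%: POLR3G (-1.06 ± 0.1262, limma adjusted p = 3.61e-06), POLR3K (0.55 ± 0.1042, limma adjusted p = 0.000504), POLR3B (-0.26, limma adjusted p = 0.0215), POLR3GL (0.31, limma adjusted p = 0.0383) and POLR3C (-0.23, limma adjusted p = 0.0448). In each, the size was mainly that of the shRNA comparison, since the gRNA differences were at most 0.0925. The NT shRNA libraries of the comparison that chose these genes enter here too, so these calls are not independent of that comparison. POLR3G and POLR3K held with each of the 12 libraries left out in turn. The calls of POLR3B, POLR3C and POLR3GL did not, and the count of calls was then 2 to 4. It was 2 or 3 without replicate 1 or 3 of either gRNA group, B4GALNT1 shRNA replicate 2 or 3, or NT shRNA replicate 3. Over all genes this contrast called 2318 higher and 1760 lower, and 1821 and 2231 after median-centring.

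Other subunits of the enzyme were read from a list of 8, made of CRCP, a subunit of the stalk, and of subunits shared with other polymerases. With the B4GALNT1 shRNA, 4 of the 8 rose and 1 fell, beside 18.4% and 26.0% of all genes tested. In the NT gRNA against NT shRNA comparison 5 were higher and 2 lower, beside 22.4% and 26.5%. CRCP fell with the B4GALNT1 shRNA from 15.3 to 10.8 FPKM (-0.47, limma adjusted p = 1.27e-05). It averaged 14.5 with the ANXA4 shRNA, with overlap with the control. It was also low with the NT gRNA, at 11.4 FPKM (-0.39 against the NT shRNA, limma adjusted p = 9.59e-05). Its means were 11.6 FPKM with the B4GALNT1 gRNA, and 12.0 and 12.1 in the libraries labelled ANXA4 array and NT array. POLR2E, POLR2F, POLR2H, POLR2K and POLR2L are contained in all 3 nuclear polymerases. POLR2E averaged 91.2 FPKM with the B4GALNT1 shRNA and 91.9 with the NT shRNA (-0.0101, limma adjusted p = 0.863), and the other 4 passed. POLR2H rose from 40.2 to 48.0 FPKM (0.25, limma adjusted p = 7.06e-05), POLR2K from 37.8 to 46.2 FPKM (0.28, limma adjusted p = 0.00109), POLR2F from 50.4 to 58.3 FPKM (0.21, limma adjusted p = 0.021) and POLR2L from 105.4 to 123.1 FPKM (0.22, limma adjusted p = 0.0239). With the NT gRNA these 4 averaged 45.8, 45.5, 60.9 and 132.8 FPKM in that order, with no overlap with the NT shRNA. With the ANXA4 shRNA they averaged 48.2, 43.8, 59.7 and 124.1 FPKM, also with no overlap with that control. In that comparison 6 of the 8, POLR1C and POLR1D among them, were higher with no overlap, beside 29.9% of all genes. The count lower with no overlap was 0, beside 31.1%. POLR2E averaged 93.7 there, with overlap, and these comparisons share the NT shRNA libraries.

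The general factors TFIIIA, TFIIIB and TFIIIC bring the polymerase to its genes, and 11 of their genes were measured. With the B4GALNT1 shRNA 4 rose and 2 fell, beside 18.4% and 26.0% of all genes, so the 6 called are near the 44.4% called overall. TBP, which serves all 3 polymerases, rose from 12.4 to 20.2 FPKM (0.66, limma adjusted p = 2.5e-09). BRF1, the TFIIIB subunit used at transfer RNA genes, fell from 22.3 to 17.0 FPKM (-0.37, limma adjusted p = 1.23e-06), and GTF3C6, a TFIIIC subunit, fell from 47.0 to 28.5 FPKM (-0.70, limma adjusted p = 2.07e-08). TBP and BRF1 differed in the same directions between the NT gRNA and NT shRNA groups, at 17.0 FPKM (0.42, limma adjusted p = 1e-06) and 16.9 FPKM (-0.38, limma adjusted p = 1.04e-06), and GTF3C6 did not pass there (limma adjusted p = 0.17). With the ANXA4 shRNA TBP averaged 23.2 FPKM, BRF1 18.4 and BDP1, another TFIIIB subunit, 4.46 against 6.34. All of these comparisons share the NT shRNA libraries.

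SNAPc and its activators serve the U6-type promoters, and 1 of the 7 genes rose and 2 fell with the B4GALNT1 shRNA, beside 18.4% and 26.0% of all genes. SNAPC1 was at 14.2 FPKM with the NT shRNA, 12.3 with the B4GALNT1 shRNA (-0.19, limma adjusted p = 0.0207) and 9.96 with the NT gRNA (-0.47, limma adjusted p = 8.87e-06). After median-centring 2 were called higher and 0 lower with the B4GALNT1 shRNA, so no direction is drawn for this group. Among 4 regulators and partners, MAF1, the repressor of the polymerase, fell from 86.7 to 73.4 FPKM (-0.24, limma adjusted p = 0.000462), and MEPCE, which caps the 7SK RNA, fell from 37.7 to 29.9 FPKM (-0.33, limma adjusted p = 0.00154). The other members, SSB and LARP7, did not pass.

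Of 19 genes of transfer RNA processing, 7 rose and 5 fell with the B4GALNT1 shRNA, beside 18.4% and 26.0% of all genes. In the NT gRNA group against the NT shRNA group 5 were higher and 1 lower, beside 22.4% and 26.5%. After median-centring the second count became 10 higher and 0 lower, where all 13679 genes gave 3698 and 2860. Subunits of RNase P, which trims the 5′ end of transfer RNA precursors, went in both directions with the B4GALNT1 shRNA. RPP30 rose from 11.7 to 16.3 FPKM (0.45, limma adjusted p = 1.56e-07), and RPP14 from 11.8 to 15.8 (0.39, limma adjusted p = 0.000146). RPP38 fell from 22.5 to 17.0 (-0.39, limma adjusted p = 1.62e-05). TSEN54, of the transfer RNA splicing endonuclease, fell from 28.9 to 20.3 (-0.49, limma adjusted p = 6.3e-05). With the NT gRNA against the same NT shRNA libraries, RPP30 was also higher, at 17.1 FPKM (0.51, limma adjusted p = 3.14e-08). So was RPP14, at 14.8 FPKM (0.30, limma adjusted p = 0.00159). RPP38 (-0.135, limma adjusted p = 0.0538) and TSEN54 (0.083, limma adjusted p = 0.415) did not pass there. With the ANXA4 shRNA RPP30 averaged 21.2 FPKM, RPP40 10.3 against 6.35 and RPP14 16.6 against 11.8. In that comparison, 12 of the 19 were higher and 2 lower with no overlap, beside 29.9% and 31.1% of all genes, and the list median was 0.12.

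Of 17 listed transcripts made by the polymerase, 11 were in the table and 5 passed the filter on low values. No call was made on them in any tested comparison. The array groups were not tested against the others: RMRP averaged 0.555 and 0.690 FPKM there, and 3.98 to 9.73 in the other groups. RPPH1 averaged 0.263 and 0.385 FPKM in the arrays, and 3.97 to 7.19 in the other groups. RNU6-2 averaged 9.99 ± 2.99 FPKM with the NT shRNA, 14.7 ± 1.65 with the B4GALNT1 shRNA (0.55, limma adjusted p = 0.0567) and 13.7 ± 2.72 with the ANXA4 shRNA (SD, n = 3). Most such transcripts carry no poly(A) tail, and libraries labelled as made from messenger RNA hold them only in part, so these values do not measure the output of the enzyme. After median-centring 1 of the 5 was called higher with the B4GALNT1 shRNA.

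Lists for the other polymerases were read beside them. Of 6 subunits particular to RNA polymerase I, 1 rose and 1 fell with the B4GALNT1 shRNA, and of 7 particular to RNA polymerase II, 1 rose and 2 fell, beside 18.4% and 26.0% of all genes. CD3EAP, of polymerase I, fell from 6.76 to 4.68 FPKM (-0.45, limma adjusted p = 7.78e-05), and POLR2A, the largest subunit of polymerase II, from 66.9 to 48.7 FPKM (-0.45, limma adjusted p = 1.76e-07). With the ANXA4 shRNA POLR2C, of polymerase II, averaged 39.4 against 56.7 FPKM with no overlap. The median difference in that comparison was 0.21 for the other polymerase III subunits, 0.09 for polymerase I and -0.07 for polymerase II, beside -0.01 for all genes. In neither RfxCasR targeting comparison was a gene of any of these lists called.

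**Figure D4:**
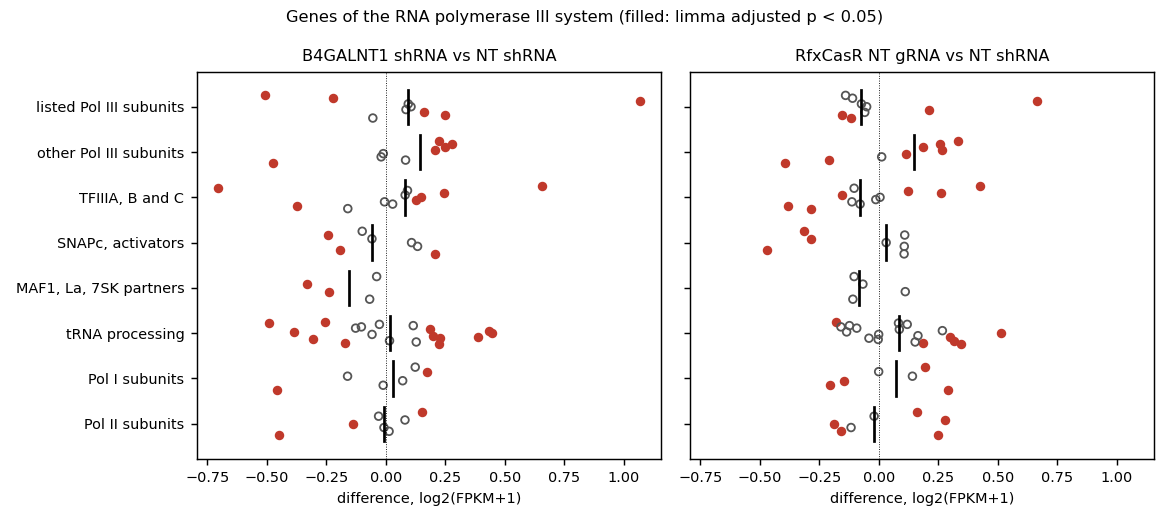
Difference on the log2(FPKM + 1) scale (horizontal axes) for the genes of 8 lists (rows) with the B4GALNT1 shRNA against the NT shRNA (left) and with the NT gRNA against the NT shRNA (right); filled points passed limma at an adjusted p under 0.05, and black bars are list medians. In every list but MAF1 and its partners, genes called higher and called lower occur together in at least 1 panel, and the polymerase III subunit farthest from 0 in both panels is POLR3G.

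Genes whose profile was most like that of each paralog over the 21 libraries were taken by Pearson's r of log2(FPKM + 1), as a description of libraries that share groups. For POLR3GL they were BBS4 (r = 0.973), ASCC3 (0.972), PITPNB (0.97), FREM2 (0.965) and PODXL (0.965). All 5 were lowest with the ANXA4 shRNA: PITPNB, a phosphatidylinositol transfer protein, averaged 21.2 FPKM there and 51.6 to 58.0 in the other groups, and ASCC3, a helicase, 5.72 there and 12.8 to 14.5 elsewhere. For POLR3G they were NUP54 (r = 0.964), VDAC1 (0.961), PLS1 (0.955), GSPT1 (0.953) and SLC16A1 (0.95). All 5 were lowest with the NT shRNA: NUP54, a nuclear pore protein, averaged 17.7 FPKM there and 27.0 to 38.6 elsewhere. These genes were picked for their likeness to POLR3GL and POLR3G, so the groups in which they were lowest follow from the choice.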

How the data were processed

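Messenger RNA was sequenced from 21 HEK 293FT libraries in 7 groups of 3. Per the submitters' processing notes, the genome build was hg19 and the tools were STAR, HOMER, FastQC, R 3.3.2 and DESeq2 1.14.1. The authors deposited FPKM values for 27142 genes, which, per the file headers, HOMER made from reads counted in exons on the sense strand, with transcripts condensed to genes. The authors also deposited 4 comparison tables, in which each gene has an adjusted p-value, a log2 fold change and a mean normalized count (a signal). The first pair served only as the authors' values, and the signal was not used.

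For each library a depth was sought that made the product of FPKM, exon length and depth a whole number of reads. The depths found were 21.3 to 39.5 M reads. With them, 95.6% to 99.5% of values per library came out whole, within 0.1 of a read. The 13679 genes that reached 1 FPKM in 3 or more libraries were fitted as log2(FPKM + 1) with limma 3.58.1 in R 4.3.3, with a variance trend and 1 model over all groups. This scale understates the change of low genes. Calls were made at a Benjamini-Hochberg adjusted p under 0.05 over all genes of a comparison. Paralog shares were compared by exact two-sided permutation tests. The replicates are called biological without saying whether cultures were separate, so p-values reflect only how much these samples vary. Replicate numbers are only shared numbers in the labels and did not enter the main model. No pair of libraries within a group agreed within sampling noise.

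The genes, the lists and the rule for named genes were chosen with earlier results of these data known. The rule takes all 9 subunits, up to 3 called genes of each list with the smallest adjusted p, up to 3 with the largest ANXA4 shRNA difference, the 5 profiles most like each paralog, and both targets. Some that it takes are given only in the counts. One gene first listed among the other subunits is not reported here and was taken out of its list. The alternatives were voom on recovered reads, a replicate block, median-centring, quantile normalization, a pseudocount of 0.1, a mean of at least 5 FPKM or no filter, a fit without variance trend, a fit of the compared groups alone, a threshold of 0.01, the authors' tables and leaving out each library. A model without the 6 array libraries was added after seeing the data. Coding sequences were read from GENCODE transcripts (GRCh38). The transcript was matched by RefSeq identifier for 8 genes and taken as the longest coding one for POLR3GL. Protein sequences were not used here.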

Additional observations from a re-analysis of the deposited data

Results flagged for a closer look

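The effects of the B4GALNT1 gRNA and the B4GALNT1 shRNA, each against its own NT control, were compared in a test of the difference itself. It passed for 5 of the 9 subunits, beside 29.8% of all genes tested. On log2(FPKM + 1) and as gRNA effect minus shRNA effect, the differences were -1.0567 for POLR3G (limma adjusted p = 3.61e-06), 0.5519 for POLR3K (0.000504), -0.255 for POLR3B (0.0215), 0.3127 for POLR3GL (0.0383) and -0.229 for POLR3C (0.0448). All 3 libraries of both B4GALNT1 groups enter each value, as do those of both NT controls. The NT shRNA libraries also entered the comparison that chose these genes, so these calls are not independent of it. With single libraries left out, POLR3G and POLR3K kept their calls, and POLR3B, POLR3C and POLR3GL did not in every case. POLR3G was at 3.70 FPKM on average in the NT shRNA control and at 6.45 in the NT gRNA control, and at 8.86 and 6.52 with the matching targeting constructs, so the controls differed as well as the targeted groups. POLR3K was at 75.8 and 68.5 FPKM in these controls and at 52.9 and 70.8 with the targeting constructs.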

How the results depend on the processing

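The count of subunits called with the B4GALNT1 shRNA was 5, and 3 at an adjusted p under 0.01. Leaving out each library gave 3 to 5. Calls were also gained, so 5 was not the largest count over all settings. POLR3D and POLR3E passed after quantile normalization (limma adjusted p = 0.0403 and 0.0191) and after median-centring (0.0364 and 0.0417). For the NT gRNA against the NT shRNA the count was 4, beside 48.9% of all genes. It was 2 after median-centring, with voom on recovered reads and at an adjusted p under 0.01. Over all genes, 3698 were called higher and 2860 lower after median-centring, and 3276 and 3130 with voom, beside 3066 and 3621 in the main fit. Leaving out each library gave 2 to 5 subunits. Over all genes it gave 2611 to 2722 calls higher and 3142 to 3233 lower. For the difference between methods the count was 5, beside 29.8% of all genes, then 3 with no filter on low values and 2 at an adjusted p under 0.01. With no filter, 2126 of 21938 genes were called higher and 1635 lower, beside 2318 and 1760 of 13679 in the main fit. Leaving out each library gave 2 to 4 subunits. Over all genes it gave 2013 to 2132 calls higher and 1540 to 1620 lower. In both RfxCasR targeting comparisons the count of subunits was 0 under every alternative run. The cause of these moves was not tested. Counted in recovered reads, the POLR3GL share with the ANXA4 shRNA differed from the control by -49.76 points in place of -41.49, since reads also weigh exon length. The share between the arrays, 0.714 points, ran from -1.255 to 2.723 when libraries were left out, with 3 values below 0. In the NT gRNA against NT shRNA comparison POLR3K was also called after quantile normalization (-0.172, limma adjusted p = 0.0247), without NT shRNA replicate 3 (-0.2104, 0.0329) and without the 6 array libraries (-0.1394, 0.04).

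In the tested comparisons, signs turned only for differences that were not called. For the B4GALNT1 gRNA these were POLR3B, at 0.0003 in the authors' deposited table and 0.0014 with voom, and, over single libraries left out, POLR3A (-0.007 to 0.0466), POLR3B (-0.0384 to 0.0376), POLR3F (-0.0924 to 0.0135) and POLR3G (-0.0147 to 0.0628). For the arrays, the authors' deposited table gave POLR3A -0.0529, POLR3B 0.1499, POLR3C -0.0493, POLR3D -0.0815, POLR3E 0.0603, POLR3F -0.1305, POLR3G 0.0481, POLR3GL -0.0436 and POLR3K -0.0018, and voom gave POLR3K -0.0027. Over single array libraries left out, POLR3K ran from -0.086 to 0.0624, POLR3G from -0.1399 to 0.0756 and POLR3GL from -0.0392 to 0.0899. Quantile normalization gave POLR3E 0.0026 for the NT gRNA against the NT shRNA, and over single libraries left out POLR3D ran from -0.054 to 0.026 for the difference between methods. In the ANXA4 shRNA comparison, which was not tested, POLR3K ran from -0.0947 to 0.041 over single libraries left out.

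The labels do not say that replicate numbers pair the samples. Deviations of same-numbered libraries correlated at -0.146 to 0.072. Each B4GALNT1 gRNA library matched its own number best among the NT gRNA libraries, which is a hint from the data only. So did NT gRNA replicates 1 and 3 and B4GALNT1 shRNA replicate 3 among the NT shRNA libraries, and the other libraries compared did not. In every shRNA and single-guide group, replicate 3 had the lowest percent of reads in genes (84.8% to 85.2%, the others 85.5% to 85.9%). Whether the numbers mark a shared batch was not tested. With the replicate number as a block, 5 subunits were called with the B4GALNT1 shRNA, 4 for the NT gRNA against the NT shRNA, 5 for the difference between methods and 0 in both RfxCasR targeting comparisons. Over all 13679 genes, the block gave 2537 higher and 3562 lower with the B4GALNT1 shRNA. It gave 3076 and 3631 for the NT gRNA against the NT shRNA, and 2348 and 1780 for the difference between methods. The block moved 3 list counts, each by 1 gene called lower. Depth limits the lowest value, POLR3GL at 210 reads, and most low-level transcripts of the polymerase itself.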
